A study of Homo sapiens with 22 samples.

Results

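Homologous recombination, the Fanconi pathway and their checkpoint kinases were followed through 39 genes in 2 neuroblastoma cell lines treated with PP121 and bufalin. The genes were chosen by function, from a list of symbols, with earlier results of these data known. All 39 were found among the 35237 rows of the count table. All 39 also passed the low-count filter in each model, so none was left out. PP121 is a small inhibitor of kinases that act on tyrosine or on phosphoinositides, and bufalin is a cardiac glycoside that inhibits the sodium pump. SK-N-AS and GIMEN are established human lines, both labelled MES (mesenchymal) neuroblastoma.

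Untreated SK-N-AS cells (n = 4) were kept in DMEM with 10% serum. S1D4 cells (n = 4) had 4 days of 5 µM PP121 in DMEM with 1% serum. Those S1D4 cells then received 5 µM PP121 and 100 nM bufalin in Neurobasal with B27, a medium listed without serum, for 4 days (S2D4, n = 4) or for 30 days (S2D30, n = 4). Untreated GIMEN cells (n = 3) were kept in RPMI with 10% serum, and D30 cells (n = 3) had 2.5 µM PP121 and 10 nM bufalin in RPMI with 1% serum for 30 days. Drug and serum changed together in each comparison with untreated cells, and the base medium changed too in stage 2, so their effects cannot be told apart, and no group of the same age without drug was analysed here. Nothing in the labels says whether replicates were separate cultures, so p-values measure the spread between these samples only.

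Homologous recombination repairs broken DNA by copying an intact sister chromatid, and therefore acts mainly in cells that are replicating or have replicated their DNA. Nucleases trim the broken ends, BRCA1, BRCA2 and their partners prepare the exposed strand for pairing, and further proteins, RAD54L among them, help it find and join the matching sequence. Fanconi proteins recognise crosslinked DNA, attach ubiquitin to FANCD2 and FANCI and hand the lesion to nucleases and recombination. ATM and ATR are the kinases that sense breaks and stalled forks, and CHEK2 and CHEK1 carry their signals. Many of these genes are transcribed in a cell cycle dependent way, while others are made at all times.

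Libraries held 16456484 to 37506800 counts. S2D4 replicate 4 correlated with the other S2D4 libraries at 0.9673 to 0.969 on the log2 CPM scale, while S2D4 replicates 1 to 3 reached 0.99. Untreated SK-N-AS replicate 4 correlated with the other untreated libraries at 0.9771 to 0.9821, while untreated replicates 1 and 2 reached 0.9903. CPM is the count relative to library size, after TMM scaling of all 22 libraries together. Replicates 1 and 2 of S1D4 had higher sums of 12 proliferation markers (807 and 824 CPM) than replicates 3 and 4 (506 and 533 CPM). A chi-square per gene, larger where raw counts of 2 libraries differ more, was 6.7 and 3.16 within these pairs. It was 24.1 to 27.4 between the pairs, so the 4 S1D4 libraries may not be 4 independent replicates. Untreated SK-N-AS libraries had proliferation sums of 1766 to 1968 CPM, S1D4 libraries 506 to 824, S2D4 libraries 451 to 645 and S2D30 libraries 135 to 139. The same sum was 2498 to 2519.7 CPM across untreated GIMEN libraries and 116 to 134 across D30 libraries, and none of the 12 markers was at 0 in all libraries of a group. Of the cell type markers, 7 mesenchymal genes summed to 832 to 1353 CPM in untreated SK-N-AS and 37629.6 to 39214 in untreated GIMEN, and 8 adrenergic genes to 1572 to 1763 and 409.7 to 435. Untreated SK-N-AS therefore carried adrenergic markers (HAND2 at 578 CPM on average), while 3 of the 8 were at 0 counts in all untreated GIMEN libraries. The leukocyte sum of 159.7 to 207 CPM in untreated SK-N-AS came from PTPRC, with CD3E at 0 counts in each SK-N-AS library, and the 5 Schwann markers summed to at most 8.88 CPM in any library.

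Most of the 39 genes fell in each treated group, and the fall was deepest at 30 days. Summed over the 39 genes, untreated SK-N-AS libraries held 1193 to 1349 CPM, S1D4 libraries 750.3 to 847, S2D4 libraries 732 to 808 and S2D30 libraries 557 to 581. Untreated GIMEN libraries held 1408 to 1443 CPM and D30 libraries 544 to 586. No treated library of either line reached an untreated library of its own line. A gene was called where edgeR's quasi-likelihood test gave an adjusted p under 0.05, and changes are log2 fold changes. The standard error (SE) beside them was derived from the test, as the absolute change divided by the square root of its F statistic. By this rule 27 of the 39 genes were lower and 1 higher in S1D4, against 22.4% and 17.6% of the 15810 genes tested. In S2D4 28 were lower and 3 higher, against 32.2% and 30.9%. In S2D30 30 were lower and 5 higher, against 36.5% and 33.8%. In GIMEN D30 32 were lower and 4 higher, against 36% and 35.5% of 13517 genes. In either direction, 40.1%, 63.1%, 70.3% and 71.4% of all genes were called in these comparisons. Treated libraries lay below each untreated library of the line for 30 genes in S2D30 and 32 in GIMEN D30, against 33.1% and 36.8% of all genes, and above them for 3 and 4, against 33.3% and 38.6%. The median log2 fold changes of the 39 genes were -0.95, -0.90, -2.09 and -2.02, beside -0.01, -0.02, -0.03 and 0.02 over all genes tested. The 3 SK-N-AS comparisons share their untreated libraries. The proliferation markers fell with these genes, and cell type markers also changed, though not all in the same direction. Mesenchymal sums were 1261 to 1487 CPM across S1D4 libraries, 2459 to 4722 across S2D4 and 3021 to 3718 across S2D30, above the untreated sums from S2D4 on, but in GIMEN D30 they were lower than untreated, at 20459 to 23531. Adrenergic sums were 1262 to 1497 CPM across S1D4 libraries, 567 to 860.5 across S2D4, 178 to 226 across S2D30 and 234 to 277 across GIMEN D30 libraries, each below the untreated libraries of the line. Single adrenergic genes did not all follow the sums. Of the 8, 4 were called lower and 1 higher (6.77) in S1D4, 6 and 1 (4.75) in S2D4, and 7 and 0 in S2D30. In GIMEN D30 only 4 of the 8 were tested, with 1 lower, 1 higher, 2 not called and a median of 0.19. Leukocyte sums were 3.07 to 5.56 CPM in S2D30. The part of these markers in the result was not tested. In bulk RNA, fewer cells that express a gene and less RNA per cell cannot be told apart.

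**Figure D1:**
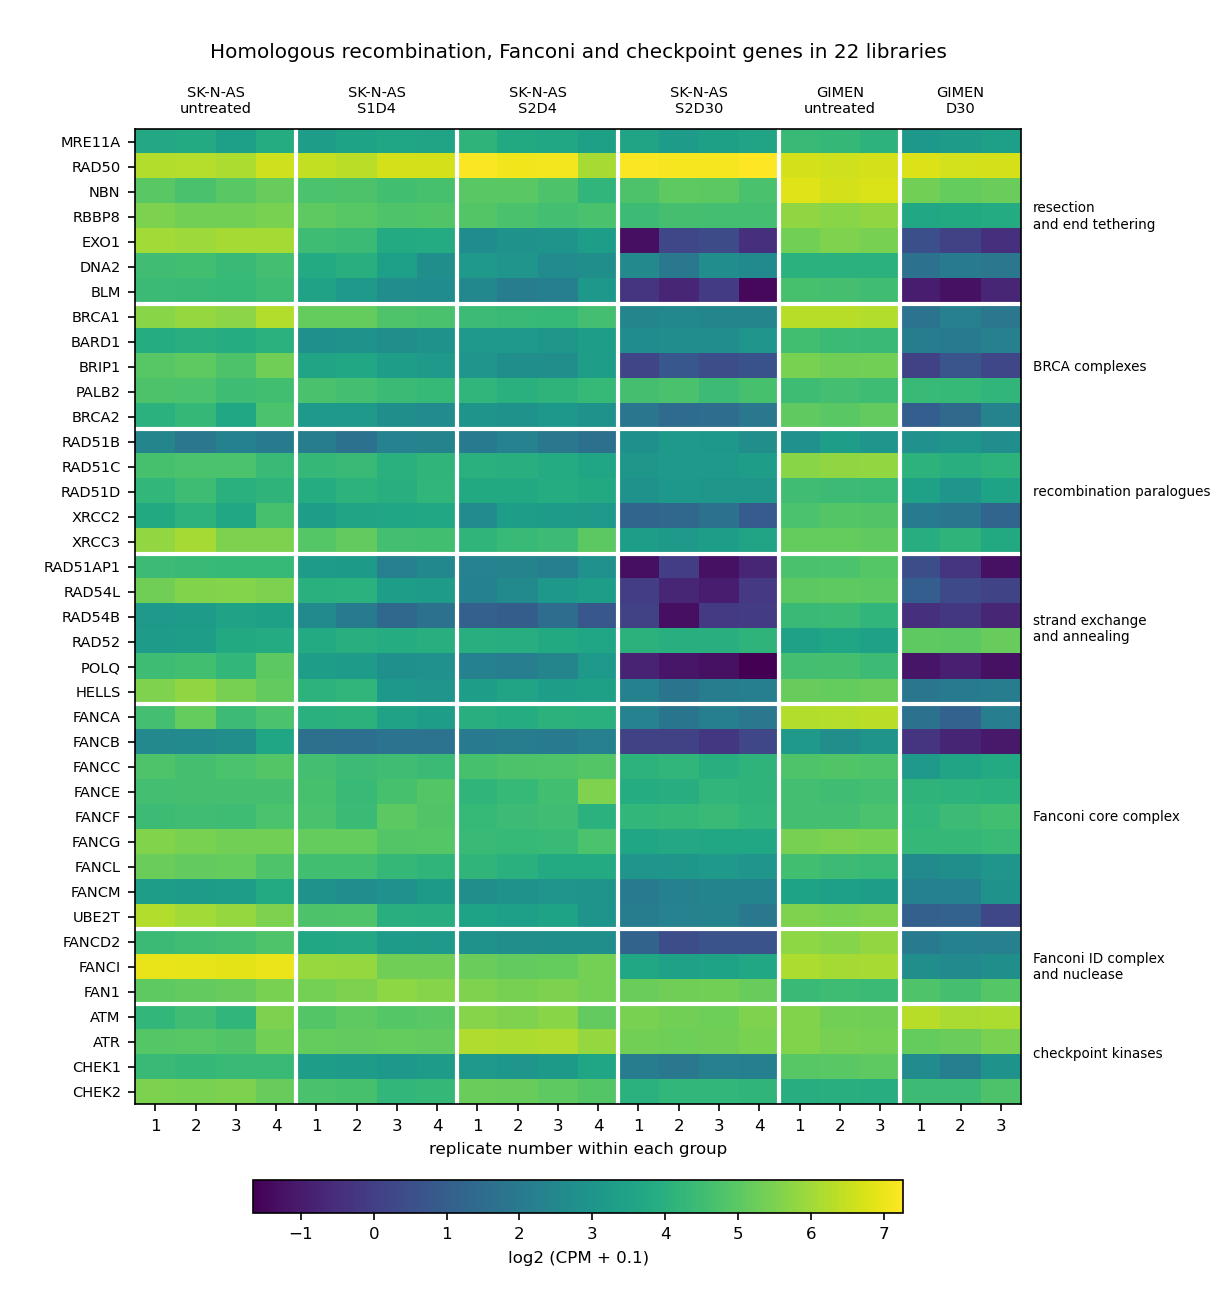
Level of each of the 39 genes (rows, grouped by role) in each of the 22 libraries (columns, numbered by replicate), as log2 of CPM plus 0.1. EXO1, BLM, BRIP1, RAD51AP1, RAD54L, RAD54B, POLQ and FANCB are darkest in the SK-N-AS S2D30 and GIMEN D30 columns, while RAD50, ATM, ATR, RAD52 and PALB2 are not.

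Promoter sequence was examined because most of the genes moved together. The RefSeq table (GRCh38.p14) holds windows of 300 bases, 250 before and 50 after a start site, for 35 of the 39 genes. Both strands were searched for E2F-type letters (TTTCCCGC or TTTGGCGC), CHR-type letters (TTTGAA or TTCGAA) and the CCAAT box, elements known from cell cycle promoters. E2F-type letters were in 4 of 35 genes (11.4%, exact binomial 95% interval 3.2% to 26.74%), and in 2.75% of the 27305 genes of the table. CHR-type letters were in 5 genes (14.3%, interval 4.8% to 30.3%), against 19.5% of all genes, and CCAAT in 16 (45.7%, interval 28.8% to 63.4%), against 39.7%. The genes were chosen with earlier results of these data known, so these intervals are no test of enrichment. Only these exact letters were searched, and a match is a description, not a binding site. HELLS, FANCD2 and XRCC2, which fell in both lines, are shown because they hold E2F-type letters, as does FANCC. UBE2T, a deep fall, and ATM, which rose, are shown because both hold CHR-type letters and a CCAAT box. Capitals mark the matched letters on either strand, and each window is written 5′ to 3′ along the gene.
HELLS (GRCh38.p14, chr10:94545538-94545837, plus strand): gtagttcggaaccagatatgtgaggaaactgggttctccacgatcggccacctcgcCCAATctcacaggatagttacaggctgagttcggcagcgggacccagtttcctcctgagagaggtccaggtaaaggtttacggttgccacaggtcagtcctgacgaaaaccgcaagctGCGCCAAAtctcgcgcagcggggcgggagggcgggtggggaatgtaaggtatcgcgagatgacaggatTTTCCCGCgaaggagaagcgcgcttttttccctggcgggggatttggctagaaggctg
FANCD2 (GRCh38.p14, chr3:10026187-10026486, plus strand): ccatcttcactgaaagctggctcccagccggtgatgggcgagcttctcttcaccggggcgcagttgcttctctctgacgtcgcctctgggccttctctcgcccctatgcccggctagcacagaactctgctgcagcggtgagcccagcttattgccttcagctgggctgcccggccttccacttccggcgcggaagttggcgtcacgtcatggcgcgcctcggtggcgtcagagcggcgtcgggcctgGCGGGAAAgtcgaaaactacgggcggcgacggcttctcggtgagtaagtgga
XRCC2 (GRCh38.p14, chr7:152676092-152676391, minus strand): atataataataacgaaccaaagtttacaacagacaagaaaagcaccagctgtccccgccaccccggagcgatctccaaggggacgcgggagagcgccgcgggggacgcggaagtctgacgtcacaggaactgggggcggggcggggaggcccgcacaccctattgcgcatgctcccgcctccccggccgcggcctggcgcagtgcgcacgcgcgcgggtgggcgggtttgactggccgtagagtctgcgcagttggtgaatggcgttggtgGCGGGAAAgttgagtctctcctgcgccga
UBE2T (GRCh38.p14, chr1:202341887-202342186, minus strand): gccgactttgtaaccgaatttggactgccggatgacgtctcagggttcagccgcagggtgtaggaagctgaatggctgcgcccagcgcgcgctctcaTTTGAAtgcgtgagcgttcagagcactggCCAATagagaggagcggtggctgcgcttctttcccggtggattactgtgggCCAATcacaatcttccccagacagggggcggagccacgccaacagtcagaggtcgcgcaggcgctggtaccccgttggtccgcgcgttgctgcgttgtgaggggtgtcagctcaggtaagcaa
ATM (GRCh38.p14, chr11:108222817-108223116, plus strand): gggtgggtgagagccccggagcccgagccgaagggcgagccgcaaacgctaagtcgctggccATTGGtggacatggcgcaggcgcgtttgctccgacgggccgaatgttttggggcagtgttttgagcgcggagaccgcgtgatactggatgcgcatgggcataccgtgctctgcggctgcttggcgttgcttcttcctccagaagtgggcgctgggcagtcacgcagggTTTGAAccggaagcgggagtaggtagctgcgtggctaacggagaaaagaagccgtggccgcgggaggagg

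The genes that trim and tether broken ends split in S2D30 into 4 of 7 that fell and 3 that did not. In GIMEN D30 6 of 7 fell. Of all genes tested, 36.5% were called lower in S2D30 and 36% in GIMEN D30. EXO1, an exonuclease that resects DNA ends, was at 65.6, 62, 67.4 and 66 CPM in the untreated SK-N-AS libraries, 22.7, 21.6, 13.8 and 14.2 in S1D4, 6.33, 7.33, 7.77 and 9.85 in S2D4 and 0.307, 1.07, 1.22 and 0.652 in S2D30. Each step was lower than the one before without overlap. Its change in S2D30 was -6.37 (SE 0.29, edgeR adjusted p 9.02e-12), the deepest fall of the 39 genes in that comparison. In GIMEN it went from 41.4, 46.1 and 43.6 to 1.35, 0.952 and 0.642 CPM, a change of -5.48 (SE 0.16, edgeR adjusted p 1.38e-10). BLM, a helicase that unwinds recombination intermediates, went from 21.5, 20.7, 20.1 and 22.5 CPM to 11.2, 8.66, 6.54 and 6.34 in S1D4, 5.54, 4.23, 4.52 and 8.56 in S2D4 and 0.702, 0.512, 0.861 and 0.261 in S2D30. Untreated and treated libraries did not overlap, and BLM changed by -5.21 (SE 0.31) in S2D30. In GIMEN BLM fell from 25.6, 24.7 and 23.3 to 0.411, 0.317 and 0.514 CPM (-5.89, SE 0.17). DNA2, a nuclease and helicase, changed by -2.10 (SE 0.22) in S2D30 and -2.21 (SE 0.13) in GIMEN.

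The MRE11-RAD50-NBN complex, which binds broken ends and activates ATM, had no gene called lower in S2D30. RAD50 was at 74.5, 77.4, 72.4 and 98.6 CPM in untreated SK-N-AS, 147, 134, 139 and 68.1 in S2D4 and 148, 140.2, 141.5 and 154 in S2D30. The S2D30 libraries were above each untreated library, and RAD50 rose by 0.82 (SE 0.18, edgeR adjusted p 6.06e-04), while S2D4 replicate 4 lay below each untreated library. In GIMEN RAD50 was at 102, 97.3 and 104 CPM untreated and 112, 101 and 104 at D30, a change of 0.04 that did not pass the test (adjusted p 0.58 by edgeR). In GENCODE release 29, 79.7% of RAD50 exon bases also belong to a readthrough gene on the same strand (AC116366.3), so counting could have split its reads. NBN was at 31.7, 25.8, 31.2 and 36.4 CPM in untreated SK-N-AS and 27.3, 32.8, 32.5 and 26.2 in S2D30, ranges that overlapped, with a change of -0.11 and an edgeR adjusted p of 0.508. In GIMEN NBN fell from 113, 102 and 109 to 41.6, 35.7 and 37.8 CPM (-1.52, SE 0.07, edgeR adjusted p 7.58e-09). MRE11A, the nuclease of the complex, was not called in S2D30 (-0.29, adjusted p 0.0904 by edgeR) and fell in GIMEN (-1.04, SE 0.12). Without untreated replicate 3 its S2D30 change was -0.38 with an edgeR adjusted p of 0.0332, and without S2D4 replicate 4 the p was 0.0458. RBBP8, which encodes the CtIP protein that starts resection, fell by 0.89 on the log2 scale in S2D30 and by 2.02 in GIMEN (SE 0.08 and 0.08).

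Of the 5 genes of the BRCA complexes, 4 fell in S2D30 and 5 in GIMEN, against 36.5% and 36% of all genes, the GIMEN call of PALB2 being lost under some settings. BRCA1, a ubiquitin ligase that promotes resection and recruits PALB2, was at 51.7, 58.1, 52.8 and 75.3 CPM in untreated SK-N-AS and 5.13, 5.63, 5.3 and 5.21 in S2D30. That is a fall of 11.4-fold, or a change of -3.52 (SE 0.14, edgeR adjusted p 1.99e-12). In GIMEN BRCA1 went from 78.3, 78.5 and 75.5 to 3.23, 4.63 and 3.6 CPM (-4.37, SE 0.11, edgeR adjusted p 3.59e-11). BARD1, the obligate partner of BRCA1, fell less in SK-N-AS, from 14.5, 15.3, 14.7 and 16.2 CPM to 6.91, 7.44, 6.58 and 7.49 in S1D4, 8.61, 8.68, 8.24 and 10.2 in S2D4 and 6.27, 6.5, 6.48 and 7.95 in S2D30. Its S2D4 libraries lay above its S1D4 libraries. BARD1 changed by -1.19 (SE 0.11) in S2D30 and -2.37 (SE 0.12) in GIMEN.

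BRIP1, a helicase that binds BRCA1 and is also known as FANCJ, was at 30.9, 32.8, 27.1 and 39.9 CPM in untreated SK-N-AS cells, 11.7, 12.9, 9.87 and 8.91 in S1D4, 7.87, 6.73, 6.59 and 9.85 in S2D4 and 1.05, 1.59, 1.31 and 1.39 in S2D30. It fell by 25-fold in S2D30 (log2 -4.65, SE 0.19, edgeR adjusted p 3.38e-12). In GIMEN BRIP1 went from 44.4, 40.3 and 41 to 0.94, 1.52 and 1.09 CPM (-5.17, SE 0.14). BRCA2, a mediator of strand pairing, changed by -2.59 (SE 0.21) in S2D30 and -3.43 (SE 0.22) in GIMEN. Its libraries ranged over 12.4 to 26.5 CPM untreated and 2.66 to 3.65 in S2D30, and over 31.2 to 34.7 CPM in untreated GIMEN and 1.94 to 4.95 at D30. PALB2, the bridge between BRCA1 and BRCA2, was the exception. It was at 27.5, 26.8, 22.5 and 23.8 CPM in untreated SK-N-AS, 18.5, 16.2, 17.8 and 20.0 in S2D4 and 24.7, 26.2, 22.2 and 25.6 in S2D30. PALB2 was lower in S2D4 than in untreated cells (-0.51, SE 0.11), while the S2D30 change of -0.07 was not called (edgeR adjusted p 0.601). Its GIMEN change of -0.25 (SE 0.08) was small, with an adjusted p of 0.0171 by edgeR that became 0.0701 without untreated replicate 2, 0.0501 with DESeq2 and 0.106 in a model of all 22 libraries.

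The 5 recombination paralogues RAD51B, RAD51C, RAD51D, XRCC2 and XRCC3, which assist the pairing step, included a member that rose. RAD51B was at 5.14, 3.54, 4.72 and 3.85 CPM in untreated SK-N-AS, 3.82, 4.78, 3.72 and 3.05 in S2D4 and 6.98, 8.8, 8.52 and 6.56 in S2D30. The S2D30 libraries lay above the other SK-N-AS libraries, a rise of 0.80 (SE 0.19, edgeR adjusted p 0.00128). In GIMEN RAD51B was at 7.12, 9.82 and 8.14 CPM untreated and 7.22, 8 and 6.55 at D30, and the change of -0.23 was not called (edgeR adjusted p 0.205). RAD51C, RAD51D and XRCC2 fell in S2D30, with changes of -1.52 (SE 0.13), -1.26 (SE 0.12) and -2.84 (SE 0.23), and in GIMEN, with changes of -1.75 (SE 0.08), -1.16 (SE 0.13) and -3.14 (SE 0.15). XRCC3 went from 55.9, 66.5, 45.8 and 44.9 to 9.96, 8.86, 9.92 and 11.6 CPM in SK-N-AS and from 36, 35.4 and 33.9 to 15, 17.8 and 13.5 in GIMEN. Its changes were -2.44 (SE 0.19) and -1.21 (SE 0.10). Exons of KLC1 on the opposite strand overlap 76.7% of XRCC3 exon bases. The strand setting of the counting is not given in the sources used here, so reads of such a pair may have been mixed.

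Genes of strand exchange and annealing held several of the deepest falls. RAD54L, a motor protein that moves along DNA during strand pairing, was at 40.1, 47.6, 49.3 and 45.2 CPM in untreated SK-N-AS cells, 16.1, 16.2, 9.79 and 9.36 in S1D4, 4.75, 6.08, 8.43 and 10.0 in S2D4 and 0.877, 0.512, 0.408 and 0.782 in S2D30. In GIMEN it went from 32, 33 and 32.6 to 1.94, 1.14 and 1.03 CPM. RAD54L fell 71.3-fold in S2D30 and 23.9-fold in GIMEN (log2 -6.16, SE 0.31 and -4.58, SE 0.16), and exons of LRRC41 lie opposite 25.1% of its exon bases. POLQ, the polymerase of an alternative end-joining route, was at 22.6, 23.3, 19.1 and 32.3 CPM in untreated SK-N-AS cells, 10.2, 9.28, 7 and 7.1 in S1D4, 4.75, 4.4, 5.18 and 8.81 in S2D4 and 0.483, 0.358, 0.317 and 0.217 in S2D30. The highest S2D30 library of POLQ was below its lowest S2D4 library. GIMEN POLQ was at 23.9, 24.7 and 22.1 CPM untreated and 0.352, 0.444 and 0.321 at D30. Its changes were -6.16 (SE 0.31, edgeR adjusted p 2.62e-11) and -5.98 (SE 0.17, edgeR adjusted p 1.49e-10).

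RAD51AP1, a DNA-binding protein that promotes strand pairing, was at 21.8, 20.6, 20.1 and 20.1 CPM in untreated SK-N-AS cells, 9.48, 9.23, 4.64 and 5.54 in S1D4, 4.84, 4.88, 4.42 and 7.1 in S2D4 and 0.307, 0.87, 0.317 and 0.521 in S2D30, and at 26.2, 26.7 and 30.2 and 1.29, 0.698 and 0.321 CPM in untreated and D30 GIMEN. Treated and untreated libraries did not overlap in either line, with changes of -5.40 (SE 0.32) in S2D30 and -5.16 (SE 0.23) in GIMEN. The GIMEN change was -5.76 without D30 replicate 1, the highest D30 library. RAD54B, a relative of RAD54L, went from 8.75, 9.66, 11 and 10.5 CPM to 2, 1.85, 2.78 and 1.62 in S2D4 and 0.965, 0.307, 0.816 and 0.825 in S2D30 (-3.79, SE 0.32), and in GIMEN from 20.8, 21.4 and 18.5 to 0.646, 0.762 and 0.514 CPM (-4.99, SE 0.17). Exons of FSBP on the same strand overlap 59.1% of RAD54B exon bases. HELLS, a chromatin remodelling helicase, was at 46.4, 55.1, 43.3 and 34.5 CPM in untreated SK-N-AS cells, 17.2, 18.3, 8.56 and 7.8 in S1D4, 9.87, 11.7, 10.2 and 10.5 in S2D4 and 4.74, 3.33, 4.12 and 4.43 in S2D30. Its S1D4 replicates 1 and 2 were above S1D4 replicates 3 and 4. HELLS changed by -3.46 (SE 0.26) in S2D30, and in GIMEN by -3.24 (SE 0.11), from 36.2, 35.7 and 37.6 to 3.46, 4 and 4.3 CPM.

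RAD52, which anneals complementary strands, moved the other way. In GIMEN it was at 10.9, 11.9 and 10.8 CPM untreated and 33.4, 32.4 and 36 at D30, a rise of 2.97-fold (log2 1.57, SE 0.09, edgeR adjusted p 3.30e-08). In SK-N-AS it was at 9.5, 10.2, 13.4 and 14.3 CPM untreated and 16.6, 15.7, 15.3 and 17.6 in S2D30. The S2D30 libraries were above each untreated library, and the rise was 0.43 (SE 0.13, edgeR adjusted p 0.00654).

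**Figure D2:**
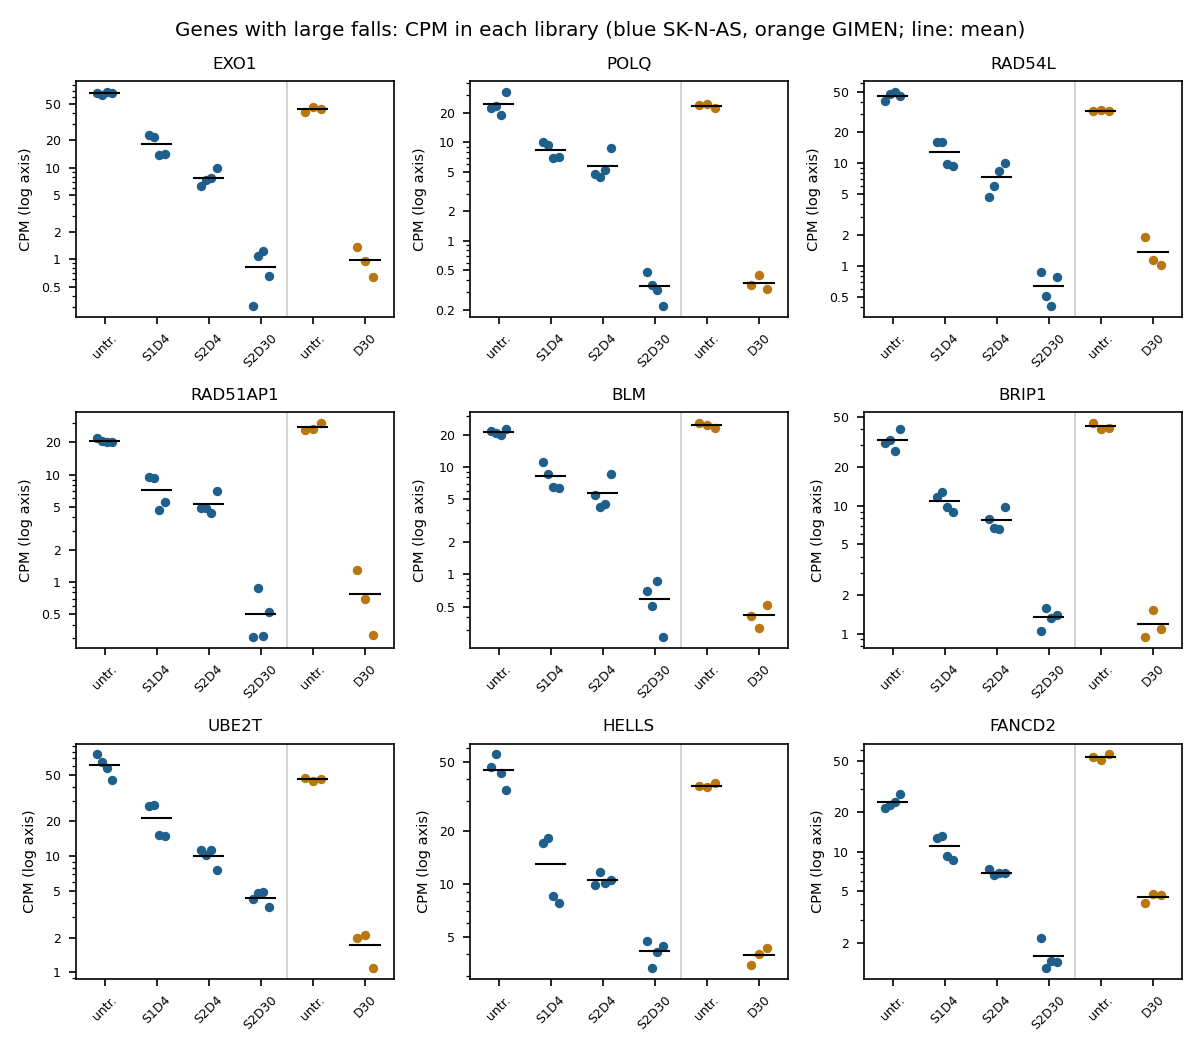
CPM on a log axis in each library (points) with group means (lines) for 9 genes that fell, in SK-N-AS (blue) and GIMEN (orange). In each panel the S2D30 and D30 points lie below the untreated points of their line, as for POLQ, whose highest S2D30 library is at 0.483 CPM and whose lowest untreated SK-N-AS library is at 19.1 CPM.

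The Fanconi core complex, a ubiquitin ligase with UBE2T as its conjugating enzyme, had 9 of 9 genes called lower in S2D30 and 9 of 9 in GIMEN, against 36.5% and 36% of all genes, though the calls of FANCE and FANCF depended on single settings or libraries. UBE2T was at 76, 65.4, 57.9 and 45.7 CPM in untreated SK-N-AS cells, 27.1, 27.7, 15.2 and 14.9 in S1D4, 11.4, 10.3, 11.3 and 7.65 in S2D4 and 4.26, 4.86, 4.89 and 3.65 in S2D30, and at 47, 44.3 and 46.8 CPM in untreated GIMEN and 2, 2.09 and 1.09 at D30. It fell 14.3-fold and 26.9-fold, or log2 -3.83 (SE 0.24, edgeR adjusted p 4.71e-10) and -4.75 (SE 0.15, edgeR adjusted p 2.47e-10). FANCA, a core subunit, was at 23.9, 35.4, 22 and 26.5 CPM in untreated SK-N-AS and 4.78, 3.43, 4.49 and 3.61 in S2D30. In GIMEN it went from 75.5, 76.4 and 80.1 to 3.17, 2.09 and 4.37 CPM. Its changes were -2.76 (SE 0.20) and -4.62 (SE 0.15), and exons of ZNF276 lie opposite 23.6% of its exon bases. FANCB, which pairs with the ligase subunit FANCL, changed by -3.04 (SE 0.24) in S2D30 and by -3.84 (SE 0.26) in GIMEN.

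FANCL, the ligase itself, went from 38.3, 34.5, 35.4 and 28.3 to 7.9, 8.24, 8.7 and 7.95 CPM in SK-N-AS (-2.09, SE 0.13) and from 23.3, 21.9 and 20.2 to 6.05, 6.79 and 7.97 in GIMEN (-1.68, SE 0.12), and 19.7% of its exon bases lie opposite other genes. FANCG went from 48, 44.8, 40.9 and 41.4 to 12.2, 13, 12.9 and 12.4 CPM (-1.83, SE 0.11) and in GIMEN from 43.2, 45 and 43.8 to 19.3, 19.4 and 20.7 (-1.18, SE 0.07). FANCM, the translocase that recruits the complex to DNA, changed by -1.23 (SE 0.15) and -0.95 (SE 0.18) in S2D30 and GIMEN. The remaining core genes fell less. FANCC went from 28.1, 24.6, 26.3 and 29.6 CPM to 25.2, 27.1, 27.7 and 29.7 in S2D4 and 17.2, 18.5, 15.1 and 17.7 in S2D30 (-0.70, SE 0.09), and changed by -1.33 (SE 0.14) in GIMEN. FANCE changed by -0.61 (SE 0.22) in S2D30 (edgeR adjusted p 0.0219) and by -0.50 (SE 0.08) in GIMEN (2.05e-04). Its libraries ranged over 24.1 to 24.8 CPM in untreated SK-N-AS and 14.7 to 18.7 in S2D30, without overlap. S2D4 replicate 4, which enters the same model and its estimate of spread, was at 46.4 CPM, beside 18.0, 19.9 and 23.8 in S2D4 replicates 1 to 3. The S2D30 p of FANCE was 0.0604 and 0.0575 without S2D30 replicates 1 and 2, and 0.0587 with a term for replicates 3 and 4 (edgeR), and its GIMEN p was 0.0987 in a model of all 22 libraries. FANCF changed by -0.32 (SE 0.13) and -0.25 (SE 0.10), with edgeR adjusted p-values of 0.0325 and 0.0471. Neither call of FANCF was stable, since the S2D30 call was lost without untreated replicate 1 or 4 or S2D30 replicate 1, 2 or 4 (edgeR adjusted p up to 0.106) and the GIMEN call without any library but D30 replicate 3 (up to 0.175), and p was 0.0577 and 0.0796 in DESeq2.

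The 2 genes that receive the ubiquitin fell deeply. FANCD2 was at 21.6, 22.8, 23.9 and 27.8 CPM in untreated SK-N-AS cells, 12.7, 13.2, 9.32 and 8.69 in S1D4, 7.36, 6.68, 6.82 and 6.81 in S2D4 and 2.19, 1.28, 1.45 and 1.43 in S2D30, a change of -3.94 (SE 0.19, edgeR adjusted p 1.40e-11). In GIMEN it went from 53.3, 50.1 and 55.9 to 4.05, 4.7 and 4.62 CPM (-3.60, SE 0.10, edgeR adjusted p 8.77e-11). FANCI, its partner, went from 125, 123, 119.6 and 128 to 12.5, 10.8, 11.2 and 12.6 CPM in SK-N-AS and from 72.1, 66.4 and 68.2 to 6.69, 5.84 and 6.87 in GIMEN. These are changes of -3.43 (SE 0.13) and -3.44 (SE 0.09). FAN1, a nuclease that binds ubiquitinated FANCD2, was called lower in neither line. It was at 32.9, 35, 36.2 and 44.7 CPM in untreated SK-N-AS cells, 42.2, 44.9, 53.5 and 50.4 in S1D4 and 37, 40.4, 41.2 and 36.3 in S2D30, with a change of 0.02 in S2D30 that was not called (edgeR adjusted p 0.84). In GIMEN FAN1 rose from 20.3, 22.6 and 21.4 to 27.7, 24.8 and 29.7 CPM (0.33, SE 0.09, edgeR adjusted p 0.00777), and exons of MTMR10 lie opposite 24.3% of its exon bases.

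Among the checkpoint kinases, CHEK1 fell in both lines, ATM rose in both, and CHEK2 moved in opposite directions. ATM was at 19, 22.8, 18.4 and 45.9 CPM in untreated SK-N-AS, 49.9, 46, 51.1 and 34.6 in S2D4 and 44.5, 41.4, 39 and 47 in S2D30. Untreated replicate 4 stood above the other untreated libraries and overlapped the treated ones. The rise in S2D30 was 0.66 (SE 0.22, edgeR adjusted p 0.0122), and without that replicate it was 1.07 (1.98e-06 by edgeR). In GIMEN ATM rose without overlap from 47.7, 41 and 40.2 to 79.7, 69.3 and 72.5 CPM (0.75, SE 0.08, edgeR adjusted p 6.21e-06). ATR was at 29.7, 31.1, 28.9 and 40.9 CPM in untreated SK-N-AS cells, 35.3, 35.1, 35.6 and 35.1 in S1D4, 72.7, 72.4, 72.9 and 57.5 in S2D4 and 41.4, 39.1, 39.8 and 44.7 in S2D30. Its level was highest in S2D4 and then dropped. The S2D30 rise of 0.30 (SE 0.10, edgeR adjusted p 0.0161) became 0.0586 and 0.0518 in adjusted p without untreated replicate 3 and S2D30 replicate 4. In GIMEN ATR was at 47, 43.6 and 42.3 CPM untreated and 35.2, 37.4 and 44.3 at D30, and the change of -0.21 was not called (edgeR adjusted p 0.0551), but it was called without D30 replicate 3 (-0.32, 0.00264) and without a filter (0.0125). Exons of another gene lie opposite 16.4% of ATR exon bases.

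CHEK2 was at 45.4, 44.3, 45 and 36.6 CPM in untreated SK-N-AS cells, 25.8, 25.3, 19 and 19.3 in S1D4, 37.3, 36.4, 33.1 and 29 in S2D4 and 16.5, 18.9, 19 and 18.1 in S2D30. The S2D4 libraries lay above each S1D4 and each S2D30 library, and the S2D30 change was -1.28 (SE 0.12, edgeR adjusted p 9.42e-08). In GIMEN it rose from 14.7, 15.6 and 15 to 21.8, 21.7 and 27.5 CPM (0.62, SE 0.11, edgeR adjusted p 3.90e-04). CHEK2 has pseudogene copies, and 0.96% of the 75-base words in its exons also occur in exons of other GENCODE genes, among them CHEK2P2. CHEK1, the kinase that ATR activates, changed by -2.27 (SE 0.13) in S2D30 and by -2.44 (SE 0.14) in GIMEN. Its libraries ranged over 19.5 to 20.5 CPM in untreated SK-N-AS and 3.63 to 4.62 in S2D30, and over 31.1 to 33 CPM in untreated GIMEN and 4.51 to 7.26 at D30.

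**Figure D3:**
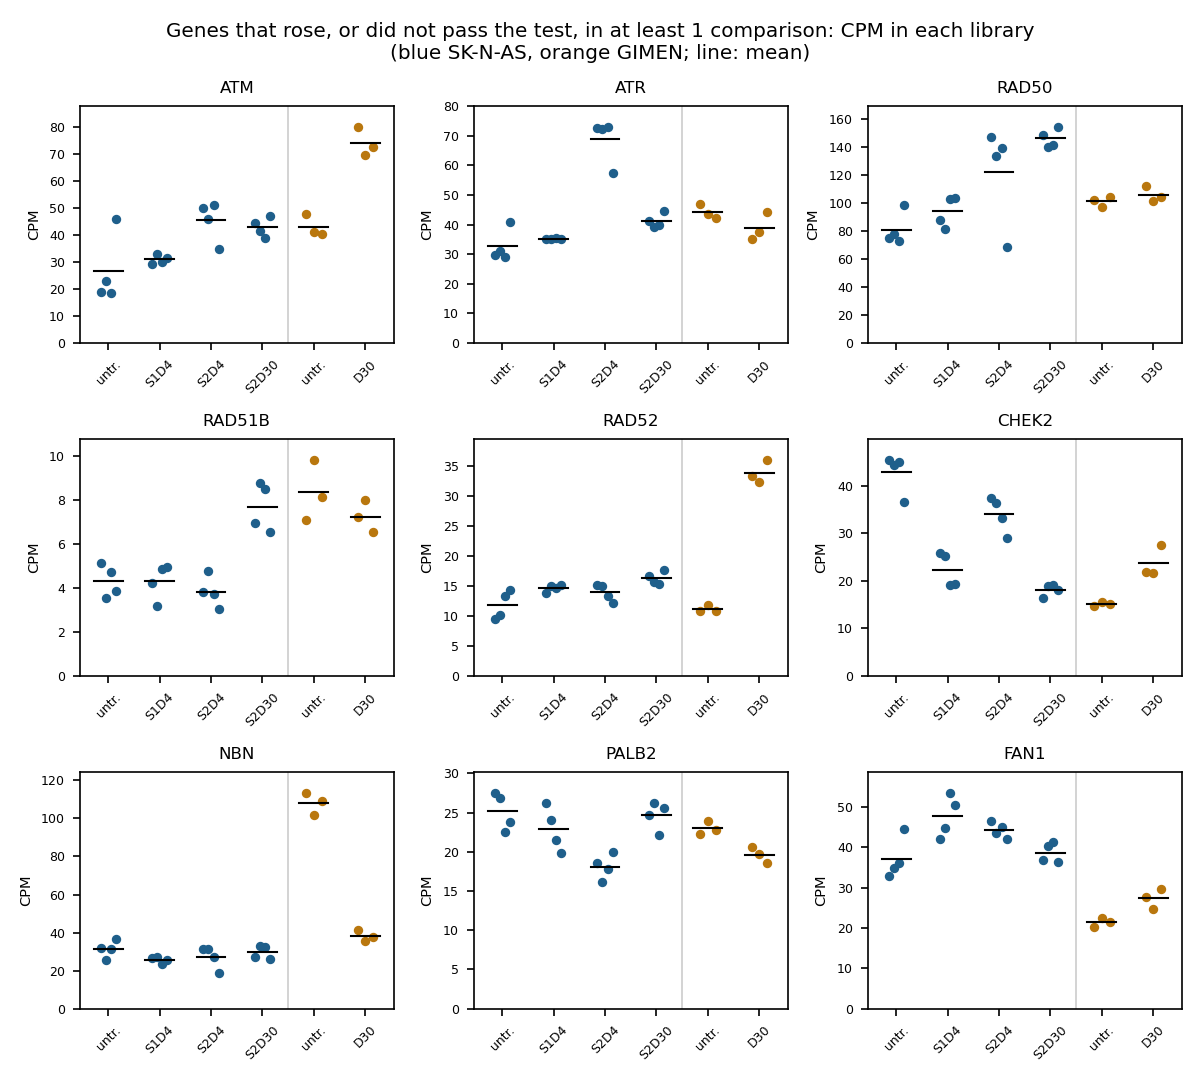
CPM in each library (points) with group means (lines) for 9 genes that rose or did not pass the test in at least 1 comparison, in SK-N-AS (blue) and GIMEN (orange). ATR peaks in S2D4 at 57.5 to 72.9 CPM, RAD52 is highest in GIMEN D30 at 32.4 to 36 CPM, and untreated SK-N-AS replicate 4 lies above the other untreated libraries for ATM, ATR, RAD50 and FAN1.

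The stages of the SK-N-AS treatment were then followed gene by gene. After 4 days of PP121 in low serum (S1D4) the largest falls were of EXO1 (-1.88, SE 0.21), RAD54L (-1.85, SE 0.23), HELLS (-1.82, SE 0.24), BRIP1 (-1.62, SE 0.16), POLQ (-1.56, SE 0.22) and UBE2T (-1.56, SE 0.21). FAN1 was the gene called higher (0.34, SE 0.10, edgeR adjusted p 0.0111). Without untreated replicate 4 the number called higher was 3, and with a term that sets replicates 3 and 4 of untreated and S1D4 cells apart it was 2, beside 26 and 27 lower.

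In S2D4 the largest falls from untreated cells were of EXO1 (-3.09, SE 0.23), RAD54L (-2.66, SE 0.24), UBE2T (-2.63, SE 0.23), RAD54B (-2.31, SE 0.28), HELLS (-2.12, SE 0.24) and BRIP1 (-2.10, SE 0.16). The 3 genes called higher were ATR (1.04, SE 0.10, edgeR adjusted p 2.42e-07), ATM (0.74, SE 0.22, edgeR adjusted p 0.00697) and RAD50 (0.56, SE 0.18, edgeR adjusted p 0.0113). ATR was higher in 4 of 4 libraries than in any untreated library, while ATM and RAD50 overlapped. The number called higher was 5 without untreated replicate 4 and 4 without S2D4 replicate 4, and the number lower 28 and 29.

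Bufalin was added and the medium changed between S1D4 and S2D4. Over this step 14 of the 39 genes were lower and 5 higher, against 26.8% and 28.3% of all genes. The split depended on scaling and on single libraries. Upper-quartile factors gave 19 lower and 2 higher, and a term for replicates 3 and 4 gave 21 and 7. Without 1 library, 11 to 19 were lower, with the fewest without S1D4 replicate 2 and the most without S2D4 replicate 4, and 3 to 6 higher, with 3 without S1D4 replicate 1, 3 or 4. EXO1 (-1.21, SE 0.22), UBE2T (-1.08, SE 0.22), RAD54B (-0.90, SE 0.28), RAD54L (-0.81, SE 0.23) and FANCD2 (-0.68, SE 0.16) fell most. The fall of RAD54B had an edgeR adjusted p of 0.0126, which was 0.0665 without S1D4 replicate 1. The genes called higher were ATR (0.96, SE 0.10, edgeR adjusted p 1.19e-06), CHEK2 (0.59, SE 0.12), ATM (0.55, SE 0.22), BARD1 (0.32, SE 0.11) and FANCC (0.27, SE 0.09). The call of ATM, at an adjusted p of 0.0426 by edgeR, was lost without any single S1D4 library, without S2D4 replicate 1, 2 or 3 and without S2D30 replicate 1 or 2, with p up to 0.102, and with upper-quartile factors (0.0927). The adjusted p-values of BARD1 and FANCC (0.0239 and 0.0165 by edgeR) were 0.0561, 0.0684 and 0.0564 without S1D4 replicate 1, S1D4 replicate 3 and S2D4 replicate 4 for BARD1, 0.0524 without S1D4 replicate 4 for FANCC, and 0.1 for both with upper-quartile factors. BARD1 also lost its call with no filter (0.0667) and in a model of only the compared groups (0.0559).

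Between day 4 and day 30 of stage 2, 28 of the 39 genes fell and 2 rose, against 26.9% and 24.4% of all genes. The largest falls were of POLQ (-4.07, SE 0.31, edgeR adjusted p 1.95e-08), RAD54L (-3.49, SE 0.30), RAD51AP1 (-3.42, SE 0.32), BLM (-3.29, SE 0.31), EXO1 (-3.28, SE 0.28) and BRIP1 (-2.54, SE 0.19). For each of these 6 genes the S2D30 libraries lay below the S2D4 libraries. PALB2 (0.44, SE 0.11, edgeR adjusted p 0.00282) and RAD51B (1.01, SE 0.19, edgeR adjusted p 3.47e-04) rose, both without overlap.

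The 30-day responses of the lines were compared by an interaction, the SK-N-AS log2 fold change minus that of GIMEN. Of the 39 genes, 12 were called above 0 and 5 below, against 24.5% and 25.2% of 16246 genes (49.7% in either direction), and upper-quartile factors gave 12 and 8. In either direction, the share called was near that of all genes. Doses, medium and serum differed between the lines, so line and protocol cannot be told apart. The largest difference was that of CHEK2, -1.92 (SE 0.16, edgeR adjusted p 6.15e-08), with a fall in 4 of 4 SK-N-AS and a rise in 3 of 3 GIMEN libraries. FANCA (1.85, SE 0.28, edgeR adjusted p 3.36e-05), NBN (1.39, SE 0.15) and RAD54B (1.20, SE 0.36) fell further in GIMEN, or for NBN fell in GIMEN and not in SK-N-AS. RAD54L (-1.59, SE 0.30, edgeR adjusted p 3.36e-04), XRCC3 (-1.24, SE 0.20) and FANCG (-0.67, SE 0.12) fell further in SK-N-AS. RAD52 (-1.16, SE 0.18, edgeR adjusted p 5.29e-05) rose further in GIMEN. For the other 22 genes the difference did not pass the test, which does not show that the lines responded alike.

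**Figure D4:**
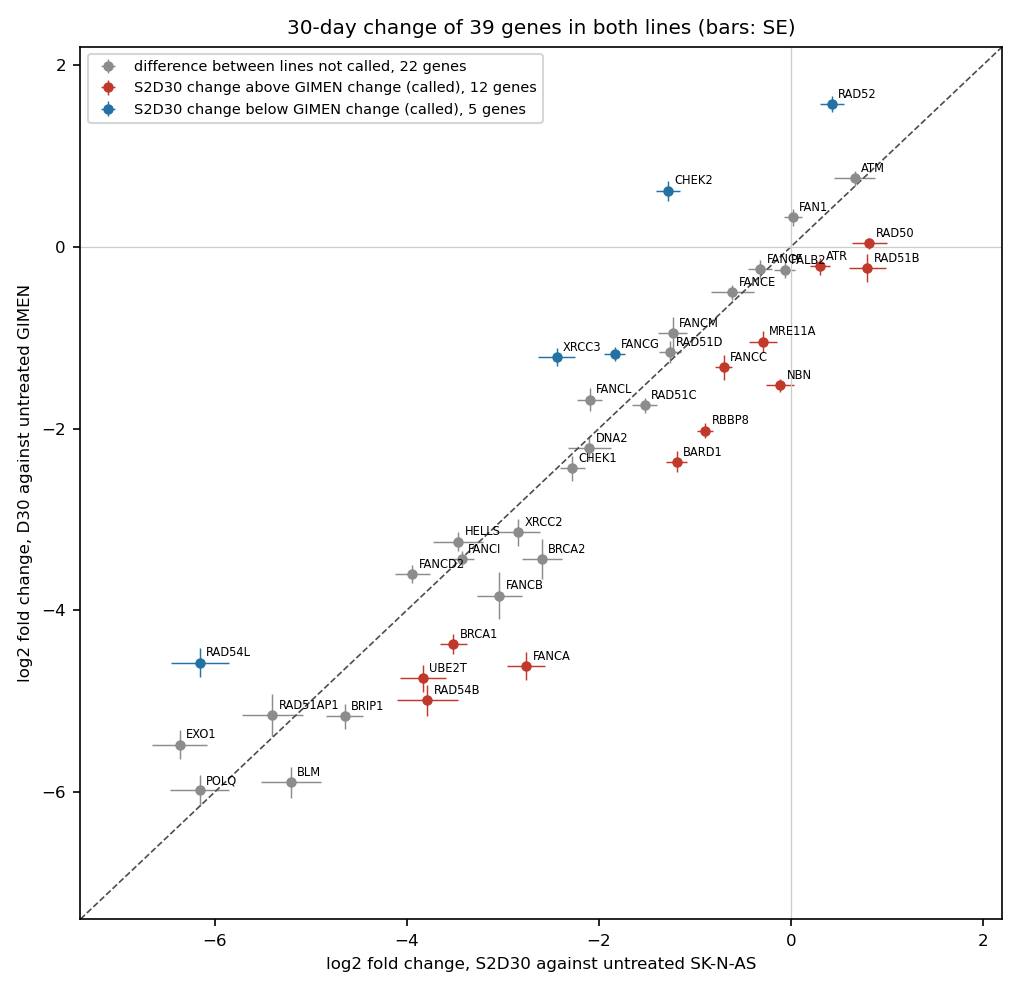
Log2 fold change of the 39 genes in S2D30 against untreated SK-N-AS (x axis) and in D30 against untreated GIMEN (y axis), with SE bars from separate models and a dashed line of equal change. Red points (12) lie below the line and blue points (5) above it where the difference between lines was called, and CHEK2 is the blue point at -1.28 and 0.62.

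Starting levels differed as well, with a share of called genes near that of all genes. Untreated GIMEN had 18 of the 39 genes higher and 9 lower than untreated SK-N-AS, against 35.3% and 38.6% of all genes (73.9% in either direction), and with upper-quartile factors 14 and 11. The interaction used the same untreated libraries, so it is not independent of this comparison. CHEK2, FANCA, NBN, RAD54B, RAD54L and XRCC3 are named in both. NBN (1.80, SE 0.11, edgeR adjusted p 1.12e-10), FANCA (1.54, SE 0.16), FANCD2 (1.16, SE 0.12), RAD51C (1.13, SE 0.10) and RAD54B (1.04, SE 0.17) were among the higher genes. RAD51C was at 51.3, 54.6 and 57 CPM in untreated GIMEN and 25.6, 26.8, 26.8 and 20.9 in untreated SK-N-AS. The GIMEN libraries of RAD51C were above those of SK-N-AS, as for 17 of the 39 genes and 34.1% of all genes. The lower genes were CHEK2 (-1.49, SE 0.12, edgeR adjusted p 4.55e-09), FANCI (-0.83, SE 0.08), FAN1 (-0.77, SE 0.10), FANCL (-0.63, SE 0.12), XRCC3 (-0.59, SE 0.14), EXO1 (-0.56, SE 0.15), RAD54L (-0.47, SE 0.13), DNA2 (-0.46, SE 0.14) and UBE2T (-0.40, SE 0.16). DNA2 was at 16.4, 16.4 and 16.3 CPM in untreated GIMEN and 22.9, 23.8, 20.1 and 24.1 in untreated SK-N-AS. The call of UBE2T (edgeR adjusted p 0.0298) was lost without untreated SK-N-AS replicate 1 or 2 or any untreated GIMEN library, with p up to 0.108, and in a model of all 22 libraries those of UBE2T and RAD54L had p of 0.087 and 0.0578.

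Per kilobase of the longest coding transcript in GENCODE, UBE2T had the highest mean level of the 39 genes in both untreated lines, 67.4 CPM per kilobase in SK-N-AS and 50.7 in GIMEN. In S2D30 RAD50 was highest at 17.6, followed by CHEK2 at 9.19, while UBE2T was at 4.86. In GIMEN D30 RAD50, RAD52 and CHEK2 were at 12.8, 12.5 and 12 CPM per kilobase. POLQ was lowest in both 30-day groups, at 0.038 and 0.0411. These orders have no test, and the transcript used by the cells was not measured.

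Other genes of the same and neighbouring pathways were counted for comparison, beside 36.5% lower and 33.8% higher among all genes in S2D30 and 36% and 35.5% in GIMEN D30. Of 35 other recombination and Fanconi genes, 23 were lower and 4 higher in S2D30, with a median of -0.59, and 23 and 5 in GIMEN D30, with a median of -0.72. RMI2 (-3.51, SE 0.24), a partner of BLM, and the nuclease subunit EME1 (-3.15, SE 0.17) were among the 3 largest falls in S2D30, and EME1 (-3.92, SE 0.12) and GEN1 (-3.20, SE 0.11), a resolvase, among those in GIMEN. ERCC1 (0.94, SE 0.09) and WRN (0.85, SE 0.14) rose most in S2D30, and HELQ (0.69, SE 0.17) and ERCC4 (0.43, SE 0.08) in GIMEN. Of 14 other checkpoint genes, 13 were lower and 1 higher in S2D30, and 10 and 2 in GIMEN. CLSPN, the adaptor through which ATR activates CHEK1, fell most in both (-4.24, SE 0.22 and -5.39, SE 0.13). CDC25A (-3.60, SE 0.23) and H2AFX (-2.70, SE 0.25) came next in S2D30, and CDC25A (-3.47, SE 0.16) and TIMELESS (-3.36, SE 0.08) in GIMEN. HUS1 (0.83, SE 0.10) rose in S2D30, and RAD9A (0.30, SE 0.09) and RAD17 (0.23, SE 0.09) in GIMEN.

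End joining needs no sister chromatid. Of 15 end-joining genes, a list that leaves out POLQ, 7 were lower and 3 higher in S2D30, and 7 and 4 in GIMEN, with medians of -0.30 and -0.08. All genes had 36.5% lower and 33.8% higher in S2D30 and 36% and 35.5% in GIMEN, so the counts of lower end-joining genes lay near the background. The kinase gene PRKDC fell most in both lines (-1.66, SE 0.22 and -1.23, SE 0.06). C9orf142 (-1.08, SE 0.15), which encodes PAXX, and XRCC4 (-1.07, SE 0.18) followed in S2D30, and XRCC4 (-1.22, SE 0.12) and XRCC5 (-0.89, SE 0.07) in GIMEN. The polymerase gene POLM rose in both (1.11, SE 0.09 and 0.69, SE 0.10), with LIG4 (0.71, SE 0.14) in S2D30 and TP53BP1 (0.39, SE 0.06) in GIMEN. All 12 proliferation markers fell in both lines, with medians of -5.40 and -5.01. MKI67 (-10.38, SE 0.58, on 0 to 10 counts per S2D30 library, and -6.78, SE 0.11) and CDK1 (-8.20, SE 0.41 and -6.11, SE 0.22) were among the 3 largest falls in both, with TOP2A (-8.89, SE 0.28) in S2D30 and RRM2 (-6.77, SE 0.10) in GIMEN. The difference between the lists was not tested.

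**Figure D5:**
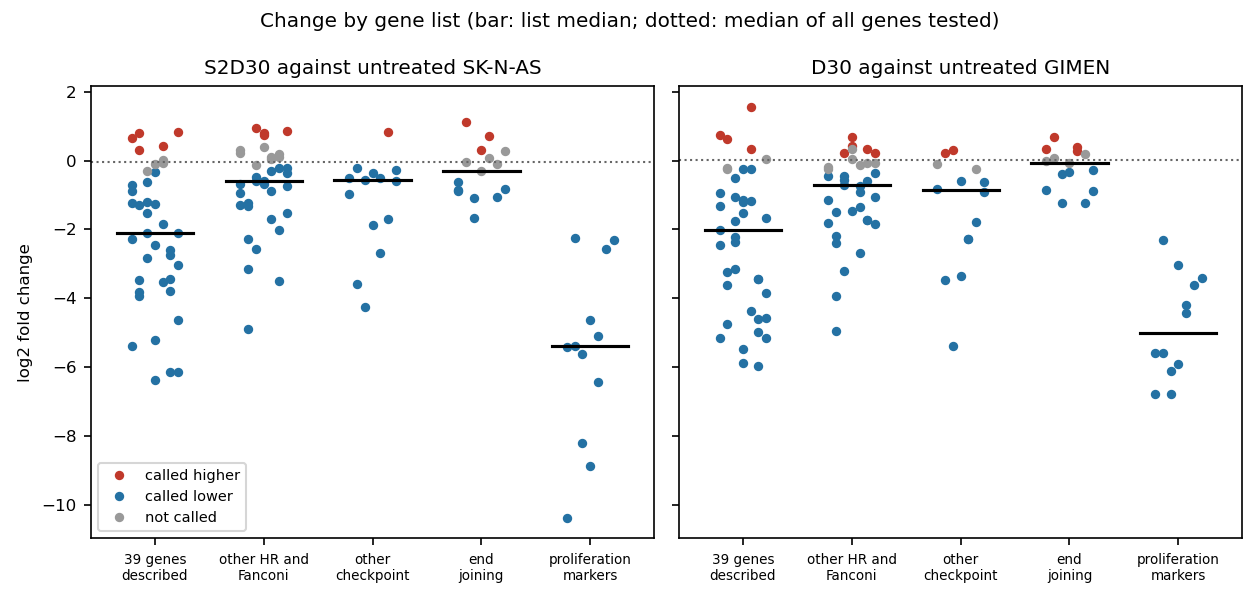
Log2 fold change of each gene (points) by list for S2D30 against untreated SK-N-AS (left) and D30 against untreated GIMEN (right), coloured by call, with list medians (bars) and the median of all genes tested (dotted). Medians of the 39 genes are -2.09 and -2.02, between those of the end-joining list (-0.30 and -0.08) and of the proliferation markers (-5.40 and -5.01).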

How the data were processed

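The authors deposited raw counts by gene symbol for 22 libraries. Total RNA had been treated with DNase and was sequenced from both ends on a HiSeq X instrument, per the labels. The aligner, counting tool, annotation, genome build and strand setting are not given in the sources used here. Library totals were 16456484 to 37506800 counts.

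Counts were tested in R 4.3.3 with edgeR 4.0.16 (filterByExpr, minimum count 10 and total 15; TMM scaling; quasi-likelihood F-test; Benjamini-Hochberg over all genes tested, threshold 0.05). One model covered 16 SK-N-AS libraries, 1 the 6 GIMEN libraries and 1 the 14 untreated and 30-day libraries. Standard errors were derived from the test, as the absolute log2 fold change divided by the square root of the F statistic. Alternatives were other scalings, DESeq2 1.42.0, other filters, a replicate block, a term for replicates 3 and 4, other sets of groups and leaving out each library. GENCODE release 29 gave overlaps and lengths.

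The members and lists were chosen with earlier results of these data known. Values are given for each member at 30 days, elsewhere for the 6 largest called changes and calls against the majority, and from other lists for the 3 largest falls and 2 largest rises; some of these are not reported here.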

Additional observations from a re-analysis of the deposited data

Results flagged for a closer look

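Among 156 combinations of a gene with an SK-N-AS group of 4 libraries, 9 had a library far from the other 3. For independent values, chance alone gives 1 in 20. Genes measured in the same library are not independent, so that rate cannot show whether these flags arose by chance. Untreated replicate 4 accounted for 4 of them. It was high for FANCB (12.3 CPM against 5.69 to 6.59 CPM in the other libraries), FANCM (14 CPM against 9.4 to 10.0 CPM) and ATM (45.9 CPM against 18.4 to 22.8 CPM), and low for CHEK2 (36.6 CPM against 44.3 to 45.4 CPM). S2D4 replicate 4 accounted for 3, being low for RAD50 (68.1 CPM against 134 to 147 CPM) and ATR (57.5 CPM against 72.4 to 72.9 CPM) and high for FANCG (26.3 CPM against 20.0 to 20.8 CPM). S2D4 replicate 3 was high for RAD51D (14.4 CPM against 13.4 to 13.4 CPM), and S2D30 replicate 4 was high for BARD1 (7.95 CPM against 6.27 to 6.5 CPM).

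The 30-day log2 fold changes differed between the lines, by the interaction test in edgeR, for the genes named in the report. The SK-N-AS change minus the GIMEN change was -1.92 for CHEK2, 1.85 for FANCA, -1.59 for RAD54L, 1.39 for NBN, -1.24 for XRCC3, 1.20 for RAD54B, -1.16 for RAD52 and -0.67 for FANCG. CHEK2 stood out by sign, with -1.28 in SK-N-AS and 0.62 in GIMEN.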

How the results depend on the processing

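The 134 fold changes of single genes were recomputed 2855 times, and 2793 values kept direction and side of the threshold, 54 lost the call, 4 gained it and 4 changed sign, none of these among called results. Those with a changed sign were FAN1 in S2D30, at -0.0069 to 0.13 without 1 library, and PALB2 in S2D30, at -0.12 to 0.011. Without 1 library the number of genes called higher was 1 to 3 in S1D4, 3 to 5 in S2D4 and 3 to 6 from S1D4 to S2D4. Upper-quartile factors gave 2 higher in that step and 8 below 0 in the difference between lines, and the term for replicates 3 and 4 gave 2 higher in S1D4 and 5 in S2D4. The cause was not tested. Upper-quartile factors also moved the median of all genes between untreated lines from -0.05 to -0.20. With the replicate block, counts were 27 lower and 1 higher in S1D4, 28 lower and 3 higher in S2D4, 30 lower and 5 higher in S2D30 and 32 lower and 4 higher in GIMEN, and 15 lower and 5 higher from S1D4 to S2D4. The labels state no pairing, and deviations of same-numbered libraries correlated at -0.101 to 0.293 in SK-N-AS (4 of 24 pairs over 0.1) and -0.0199 to 0.0134 in GIMEN (0 of 3), so the numbers were not taken to pair samples. Differently numbered SK-N-AS pairs ranged from -0.336 to 0.286 (5 of 72 over 0.1). Untreated replicates 1 and 2 correlated with S1D4 replicates 1 and 2 at 0.155 to 0.274. Untreated replicate 4 correlated with S1D4 replicates 3 and 4 at 0.286 and 0.293. In the 150 bases before the start, E2F-type letters were in 5.71% of the genes and 1.53% of all genes, CHR-type letters in 2.86% and 9.72%, and CCAAT in 40% and 27.8%, a shorter window holding fewer matches. Depth limits the 30-day values of the deepest falls. Per S2D30 library, POLQ, BLM and RAD51AP1 rest on 5 to 19 counts, EXO1 on 7 to 27, RAD54L on 9 to 20 and RAD54B on 6 to 22. Per GIMEN D30 library, POLQ rests on 5 to 7 counts, BLM on 5 to 8, RAD51AP1 on 5 to 22, RAD54B on 8 to 12, FANCB on 6 to 12 and RAD54L on 16 to 33. The differences between lines of RAD54L and RAD54B rest on such counts.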
